A study of Mus musculus with 6 samples.

Results

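The genes described here are the fibroblast growth factor (FGF) ligands and receptors, the platelet-derived growth factor (PDGF) ligands, a set of epidermal growth factor (EGF) family ligands and receptors, HGF with its receptor MET, KIT ligand, GAS6, and the Sprouty and Spred genes. They are the protein-coding genes whose symbols fit these families in the GRCm38 annotation, 47 of the 46603 genes counted. RNA was sequenced from mouse embryonic fibroblasts (MEFs) of the BALB/c strain, with the embryo age labelled as 10.5 days, and every culture had spent 6 days in adipocyte differentiation medium. That medium is growth medium with serum plus insulin, dexamethasone, 3-isobutyl-1-methylxanthine (IBMX) and ascorbic acid, and both genotypes received it. The 3 WT libraries came from wild-type cells and the 3 KO libraries from beta-actin knockout cells, and the comparison asks which of these genes differ between the genotypes in that state. The number of embryos or clones behind each genotype is not given in the sources used here, nor whether the 3 libraries of a genotype are separate cultures, so p-values measure only the spread between these libraries. No library from before induction was analysed here.

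Growth factors of these families bind receptor tyrosine kinases at the cell surface. The receptors recruit adaptors that switch on RAS and, through it, the RAF, MEK and ERK kinases. Sprouty proteins are made in response to the signal and damp it, Spred proteins also damp it, and other brakes act on the receptors or dephosphorylate ERK. In connective tissue, FGF7, FGF10 and HGF are classically made by mesenchymal cells and act on neighbouring epithelium, and PDGFs drive proliferation and migration of fibroblasts and their precursors.

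Library totals ran from 26955708 to 38619711 counts, and 20870 to 22198 genes had at least 1 count. Actb, the deleted gene, averaged 1875 ± 47.9 CPM (counts scaled to the size of each library) in WT and 39.9 ± 25.9 in KO (SD, n = 3), with 276, 1988 and 1850 counts left in KO replicates 1, 2 and 3. The fibroblast label was checked against 8 markers, of which 6 rose in KO, while Dcn and S100a4 overlapped and were not called. The summed level of the 8 was 2893 to 3624 CPM in the WT libraries and 6708 to 9284 in KO. Most of that sum was Fn1, at a mean of 2109 CPM in WT and 4949 in KO. Thy1 and Col1a2 were nearly absent from WT (0, 1 and 0 counts, and 13, 6 and 9). Summed epithelial markers were 5.06 to 10.3 CPM in WT and 30.4 to 50.6 in KO. Most of the KO sum was Krt19, at 24.6 to 44.7 CPM, and Krt18 rose too. Other markers of that list went down. Epcam went from 127 counts in WT to 0, and Cdh1 had 11, 7 and 11 counts in WT against 0, 4 and 2 in KO. Krt8 and Cldn7, at low counts, also had KO wholly below WT, and Cldn4 overlapped. Endothelial markers summed to 3.36 to 4.69 CPM in WT and 2.15 to 3.68 in KO, and macrophage markers to 8.61 to 21.2 and 3.21 to 15.7, with Tyrobp at 0 in all 6 libraries and a single Ptprc count. The fibroblast and epithelial sums thus moved with genotype, the epithelial sum through Krt19 and Krt18. The endothelial and macrophage sums overlapped between genotypes, but a gene of each list was called lower. Vwf went from 108 counts in WT to 38 in KO and Fcer1g from 55 to 4 (adjusted p = 0.0286 and 0.0064). The other tested genes of these lists were not called. The part of these marker levels in the results that follow was not tested. In bulk RNA, fewer cells of a type and less RNA per cell cannot be told apart.

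Of the 8 secreted FGF ligands tested 4 fell in KO cells and the other 4 were not called, while the receptor genes Fgfr2 and Met and the ligand genes Hgf, Pdgfc, Pdgfd, Kitl and Gas6 rose. Fgf7, Fgf18, Fgf21 and Fgf23 were 3.98 to 16.1-fold lower, while Hgf was 35.5-fold higher, Fgfr2 was 3.5-fold higher, and Pdgfc, Met and Kitl were 2.97, 2.33 and 2.2-fold higher. Among the brakes Spry1 and Spred1 fell while Spry4 and Spred3 rose. Of the 47 genes 33 had counts enough to be tested, and 9 of these were called higher and 6 lower in KO at an adjusted p under 0.05. Across all 15009 genes tested, 13.8% were called higher and 14.5% lower, or 28.3% in all. With library totals in place of TMM scaling, the share of all calls that were higher went from 48.7% to 28.8%, while the growth factor and brake genes gave 8 higher and 6 lower. Unless a refit or another method is named, adjusted p-values are two-sided, from quasi-likelihood F tests in edgeR, with Benjamini-Hochberg adjustment over all 15009 genes. Each refit adjusts over the genes that it tests. Since a gene passes the filter on low counts through the group where it is high, the 33 are not a fair sample of the 47. Their median log2 fold change, KO over WT, was 0.29, against 0.01 for all tested genes.

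All 15 called genes had KO values wholly above or wholly below the WT values, and 12 of them changed by at least 1 on the log2 scale, the exceptions being Gas6, Spred1 and Spred3. Over all 15009 tested genes, 2297 (15.3%) were called with a change of at least that size. Fgfr1, Hbegf and Spred2 also had non-overlapping groups, with KO above WT, without being called. In all, 12 genes had KO above WT and 6 had KO below, where over all tested genes these shares were 23.8% and 25.8%, or 49.6% together. The calls of Fgf7, Fgf18, Fgf23, Fgfr2, Pdgfc, Hgf, Met and Spry1 held under each of the 14 refits. The other 7 calls were lost in 1 or more, that of Pdgfd in 10 of 13. With WT replicate 1 left out, and again with WT replicate 2 left out, 4 genes were higher and 4 lower, while without KO replicate 1 the counts were 10 and 7. Over all genes these refits called 1225 higher and 1418 lower of 15410, 1003 and 1295 of 15403, and 3075 and 3462 of 15453. With every library kept, 2074 were higher and 2181 lower of 15009. The plot of log2 fold changes sets the 33 tested genes in order.

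**Figure D1:**
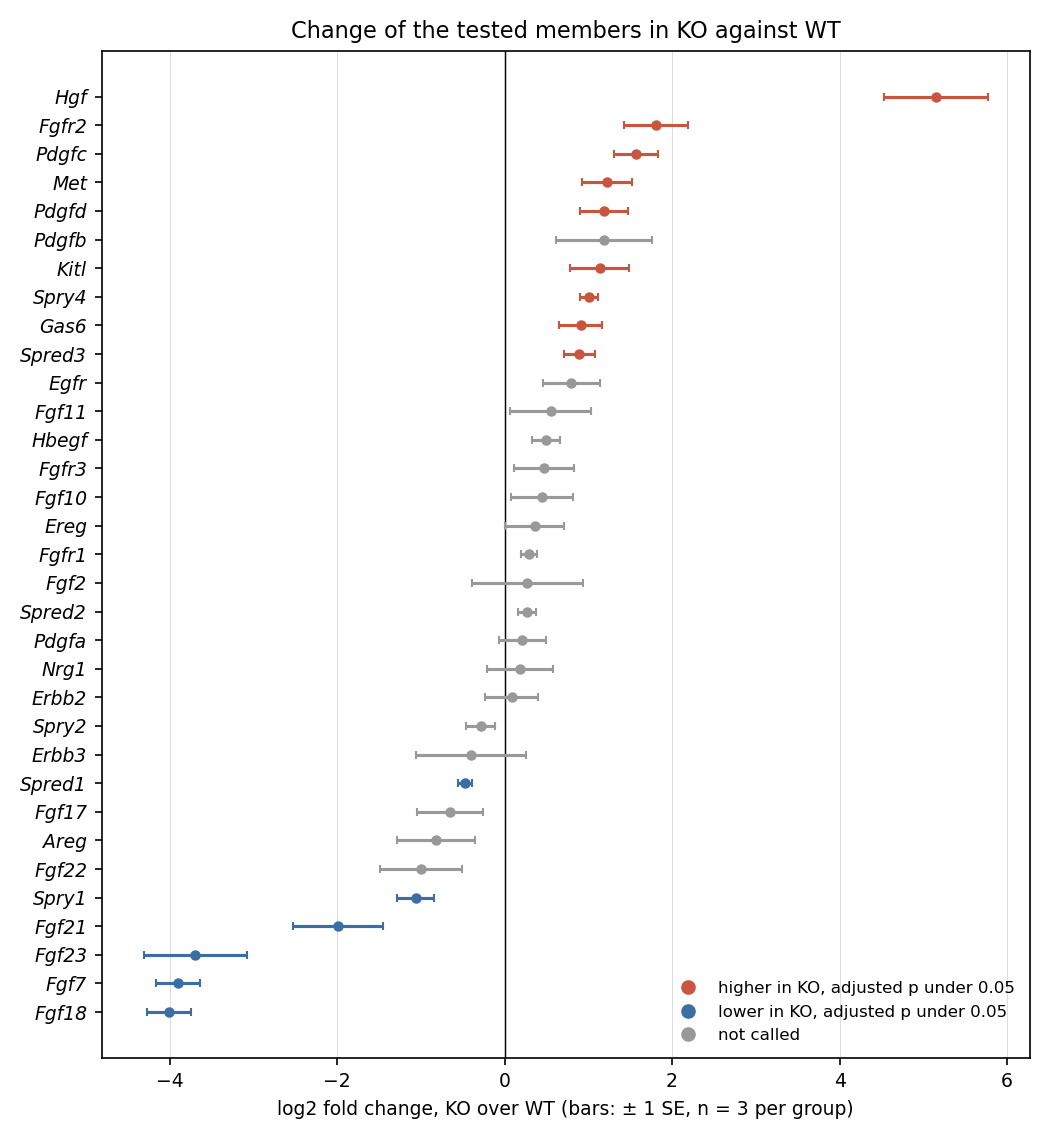
Log2 fold change, KO over WT, of the 33 tested genes, with bars of 1 SE from 3 libraries per genotype and colour for the call. Hgf stands alone at the top at 5.15, and Fgf23, Fgf7 and Fgf18 lie at the bottom between -3.69 and -4.01.

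The remaining 14 genes had at most 25 counts summed over the 3 libraries of a genotype and were not tested. Fgf3, Fgf12 and Fgf14 had 0 counts in all 6 libraries, where the limit that a count of 0 allows (3 counts) is 0.0816 to 0.113 CPM by library. Fgf1, a ligand that binds every FGF receptor, had 25 counts in WT and 23 in KO, and Fgfr4, the receptor best known from liver, had 14 and 8. Fgf8, an embryonic patterning ligand, had 3, 3 and 5 counts in WT against 0, 1 and 1 in KO. Fgf9 had 8 counts in WT and 6 in KO. Fgf4, Fgf5, Fgf6, Fgf13, Fgf15, Fgf16 and Fgf20 had 0 to 3 counts per genotype.

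The FGF ligands that act locally include Fgf7 and Fgf10, which both signal through the epithelial splice form of FGFR2. Fgf7 (ENSMUSG00000027208, chromosome 2, 126034658 to 126091185, plus strand) had 2147, 1566 and 1898 counts in WT replicates 1, 2 and 3 and 76, 152 and 172 in KO. Each KO library lay far under the lowest WT library, and the means were 60.3 ± 9.71 CPM in WT and 4.01 ± 1.01 in KO. The fitted change was -3.90 log2 (SE 0.27, adjusted p = 7.73e-05), 14.9-fold lower. Fgf18, a ligand known from bone and cartilage growth (ENSMUSG00000057967, chromosome 11, 33117430 to 33147400, minus strand), had 54, 78 and 59 counts in WT against 3, 6 and 3 in KO. All 3 KO values were close to the limit of detection, and the fitted change was -4.01 log2 (SE 0.26, adjusted p = 0.00049).

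Both genes are shown with the 250 bases before the RefSeq transcription start (GRCm38.p6), read 5′ to 3′ on the gene's strand, since they fell by the largest factors. Capitals mark matches to a motif searched here. The Fgf7 stretch is chr2:126034408-126034657 (plus strand), with a GC content of 43.6%, and the Fgf18 stretch is chr11:33147401-33147650 (minus strand), with 77.2%. The median over all 32851 promoters of the table was 52.4%.
Fgf7: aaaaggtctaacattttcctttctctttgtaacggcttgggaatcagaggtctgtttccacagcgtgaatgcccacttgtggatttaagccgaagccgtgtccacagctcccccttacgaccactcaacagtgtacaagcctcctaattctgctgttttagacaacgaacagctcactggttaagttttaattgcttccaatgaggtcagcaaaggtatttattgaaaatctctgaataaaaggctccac
Fgf18: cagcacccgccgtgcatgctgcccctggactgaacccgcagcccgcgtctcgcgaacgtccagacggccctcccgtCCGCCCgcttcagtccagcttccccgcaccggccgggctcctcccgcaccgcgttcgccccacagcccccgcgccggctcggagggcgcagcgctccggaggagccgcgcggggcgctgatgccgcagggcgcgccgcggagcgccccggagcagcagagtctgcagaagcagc
The Fgf7 window held none of the 6 motifs, and the capitals in Fgf18 are a GC box, which 35.7% of all promoter windows held.

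Fgf10 did not follow Fgf7. Its counts were 662, 567 and 498 in WT and 985, 529 and 839 in KO, and in CPM KO replicate 2 (15.7) lay under the WT range of 16.8 to 20.8 while the other KO libraries lay above it. The fitted change was 0.44 log2 (SE 0.37, adjusted p = 0.296). Fgf2, the basic FGF of fibroblasts, had 127, 140 and 73 counts in WT against 42, 174 and 232 in KO, with KO replicate 1 under every WT library and the other two KO libraries above them. It was not called (a change of 0.27 log2, adjusted p = 0.708). On its opposite strand lies Nudt6, which shares exon bases with it and had 94 counts in WT and 97 in KO. Fgf17 and Fgf22 were low, at 0.683 and 0.384 CPM in WT and 0.426 and 0.185 in KO, and neither was called (adjusted p = 0.288 and 0.222).

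The endocrine FGFs circulate as hormones. Fgf21, a metabolic hormone made by liver and fat (ENSMUSG00000030827, chromosome 7, 45613886 to 45615490), had 222, 219 and 193 counts in WT against 84, 38 and 33 in KO. The WT libraries were close together and KO replicate 1 was the highest of the KO libraries, yet no KO value reached the WT range. Its fitted change was -1.99 log2 (SE 0.54, adjusted p = 0.0164), and the adjusted p rose to 0.0572, 0.0558 and 0.0543 without WT replicates 1, 2 and 3. Fgf23, the phosphate-regulating hormone of bone (ENSMUSG00000000182, chromosome 6, 127072902 to 127081408), had 107, 45 and 80 counts in WT against 9, 2 and 7 in KO, a change of -3.69 log2 (SE 0.62, adjusted p = 0.00345). Their co-receptors were scarce. Klb, beta-Klotho, stood at 0.807 CPM in WT and 0.606 in KO (adjusted p = 0.611), and Kl, Klotho, had 0 counts in WT and 2 in KO. Fgf11, an FGF homologous factor that stays in the cell, was not called (a change of 0.55 log2, adjusted p = 0.35), with 309 counts in KO replicate 1 against 130 to 159 in the other 5 libraries.

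Among the FGF receptors, Fgfr2 rose. Fgfr2 (ENSMUSG00000030849, chromosome 7, 130162451 to 133123350, minus strand) had 1122, 693 and 1252 counts in WT against 2191, 5032 and 4276 in KO. The lowest KO library was above the highest WT library also after scaling, at 82.3 against 42.3 CPM, and the fitted change was 1.81 log2 (SE 0.38, adjusted p = 0.00386). Ctbp2, on the same strand, shares 3.04% of the Fgfr2 exon bases and had 1987 counts in WT and 2027 in KO. Counts per gene do not separate the splice forms of FGFR2 that prefer different ligands. Fgfr1, the main receptor of fibroblasts, had 4821, 4376 and 4292 counts in WT against 5203, 5311 and 6538 in KO. Its KO values sat just above its WT values, and it was not called (a change of 0.29 log2, SE 0.10, adjusted p = 0.107). Fgfr3, known from cartilage, had 469, 514 and 533 counts in WT against 903, 642 and 546 in KO, overlapping in CPM (a change of 0.47 log2, adjusted p = 0.27).

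Counts divided by exon length (RPKM, per 1000 bases of all annotated exons) allow levels to be compared between genes, and the plot of FGF levels by library stacks them. Long exons that these cells do not use lower such a value. The summed level of secreted FGFs was 37.2, 30.5 and 34.7 RPKM in WT replicates 1, 2 and 3 and 13.1, 7.3 and 9.03 in KO. Fgf7 gave 49.7% to 56.9% of it in WT and 6.72% to 19% in KO, while Fgf10 gave 10.5% to 12.7% in WT and 46.7% to 61.5% in KO. Summed receptor levels were 18.3 to 21.4 RPKM in WT and 31.4 to 33.1 in KO. Fgfr1 was the most abundant receptor in every library, and Fgfr2 held 11.5% to 19.1% of the sum in WT and 24.5% to 43.7% in KO. These shares describe the libraries and were not tested on their own.

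**Figure D2:**
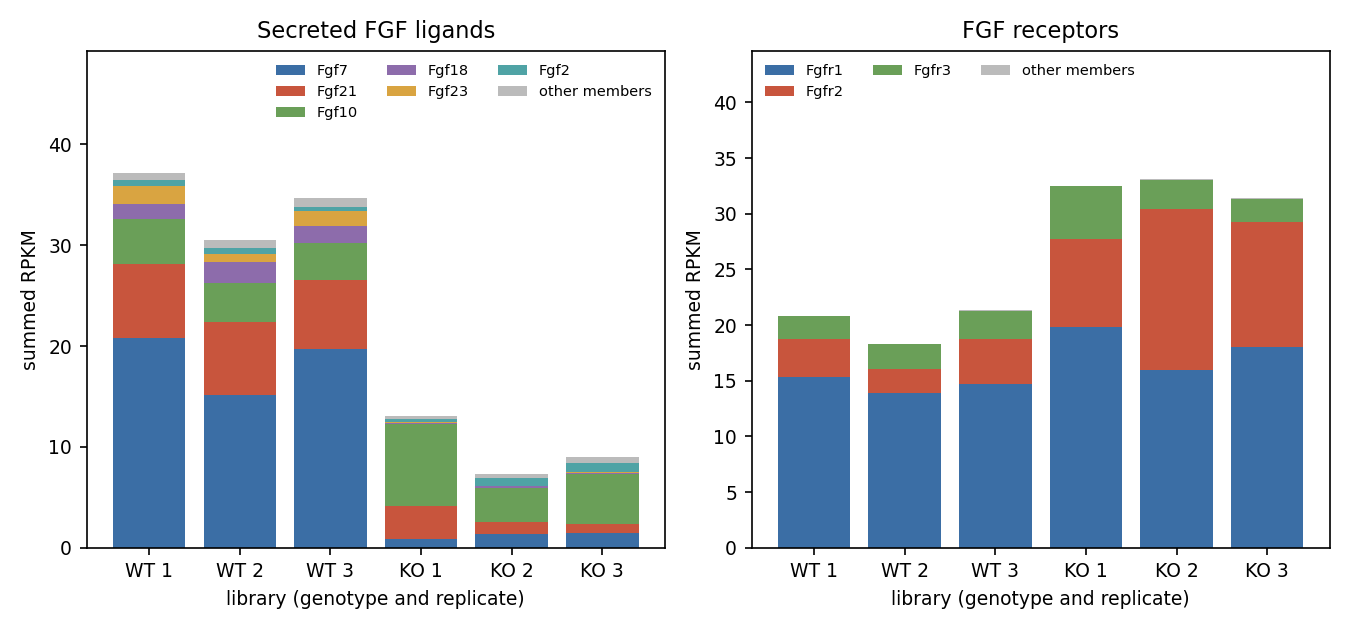
Summed RPKM (CPM per 1000 exon bases) of secreted FGF ligands (left) and FGF receptors (right) in each of the 6 libraries, stacked by gene. Ligand sums fall from at least 30.5 in WT to at most 13.1 in KO, and receptor sums rise from at most 21.4 to at least 31.4, with the Fgfr2 layer thicker in KO.

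Of the PDGF ligands, the more recently described PDGF-C and PDGF-D, which are secreted in a latent form and need proteolysis to act, were called and the classical A and B chains were not. The fitted changes of Pdgfb and Pdgfd were nearly the same size, 2.27 and 2.28-fold, so these calls do not separate the chain types. Pdgfc (ENSMUSG00000028019, chromosome 3, 81036416 to 81214040, plus strand) had 405, 373 and 239 counts in WT against 666, 1227 and 1296 in KO. KO replicate 1 was the lowest of the KO libraries, at 25 CPM, and still above the highest WT library at 12.7. The fitted change was 1.57 log2 (SE 0.27, adjusted p = 0.00242). Pdgfd had 17, 18 and 13 counts in WT against 45, 31 and 35 in KO, a change of 1.19 log2 (SE 0.29, adjusted p = 0.0429). That call was lost in 10 of 13 refits, among them whichever library was left out (adjusted p between 0.0512 and 0.134), library totals (0.0637), limma-voom (0.0543) and no filter (0.0632).

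Pdgfa, the most abundant PDGF gene per exon length, had 768, 903 and 723 counts in WT against 1105, 826 and 858 in KO, with overlapping groups (a change of 0.21 log2, adjusted p = 0.526). An antisense gene, 6330403L08Rik, covers 26.1% of its exon bases and had 603 counts in WT and 658 in KO. Pdgfb had 50, 106 and 49 counts in WT against 227, 110 and 118 in KO, and was not called (a change of 1.18 log2, SE 0.57, adjusted p = 0.111). Per exon length, Pdgfa gave 71.7% to 78.7% of the PDGF ligand sum in WT and 48.3% to 64% in KO, and Pdgfc 15.9% to 23.2% and 23.6% to 44.7%. Of the receptors for these ligands, Pdgfra rose with a change of 1.06 log2 (SE 0.45, adjusted p = 0.0484), from 22 ± 9.14 to 46 ± 9.92 CPM. It lost the call in 7 of 14 refits, namely without any 1 of the WT libraries or KO replicate 3 (adjusted p up to 0.119) and with upper-quartile scaling (0.0596), library totals (0.0889) or a CPM filter (0.051). Pdgfrb was not called (a change of 0.15 log2, adjusted p = 0.638).

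The Pdgfc promoter is shown because it was the only one among the called genes to hold a CArG box, the binding sequence of the serum response factor SRF, whose co-factors respond to the pool of actin monomers. The stretch is chr3:81036166-81036415 (GRCm38.p6, plus strand), the 250 bases before the RefSeq start, 5′ to 3′, with motif matches in capitals.
Pdgfc: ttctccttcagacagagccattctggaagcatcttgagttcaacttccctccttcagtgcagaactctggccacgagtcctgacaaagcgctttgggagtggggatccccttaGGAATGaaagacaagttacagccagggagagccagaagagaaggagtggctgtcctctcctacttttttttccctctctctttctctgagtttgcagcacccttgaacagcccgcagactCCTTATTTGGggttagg
The capitals mark GGAATG, the TEAD motif, starting at position -137 from the transcription start, and the CArG box CCTTATTTGG starting at position -17. A CArG box was found in 1.63% of all promoter windows and GGAATG in 14.7%. A match of letters is no evidence that a factor binds there.

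Promoter windows (250 bases before to 50 after a start) were found in RefSeq for 34 of the 47 genes, among them 14 of the 15 called. The called genes had 15 windows, which were searched on both strands. GC boxes (GGGCGG) were in 8 of the 15, the TEAD motif in 2 (Pdgfc and Spry1), the AP-1 motif TGANTCA in 1 (Met, at -54) and the ETS motif CCGGAAG in 1 (Kitl, at -77). The cAMP response element TGACGTCA was in none. Over all promoters GC boxes were in 35.7% and the TEAD motif in 14.7%, and AP-1, ETS and the cAMP element were in 7.81%, 8.86% and 1.79%. Windows of Fgf7, Fgf23, Fgfr2, Hgf and Pdgfd held no match to any of the 6 motifs, which says only that these letters are not in those windows.

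None of the 7 EGF family genes was called by edgeR, 2 (Egfr and Hbegf) had an unadjusted p under 0.05, and DESeq2 called 1 (Egfr). Of all 15009 tested genes, 6137 had an unadjusted p under 0.05 by edgeR, and DESeq2 called 2648 higher and 2591 lower. Areg, which encodes amphiregulin, had 226, 197 and 86 counts in WT against 103, 72 and 117 in KO (a change of -0.82 log2, SE 0.47, adjusted p = 0.149), with WT replicate 3 within the KO range. Ereg, epiregulin, had 933, 668 and 450 counts in WT against 768, 692 and 1280 in KO (a change of 0.36 log2, adjusted p = 0.365). Hbegf, heparin-binding EGF, was closest to a call among these ligands, with 7.79 to 8.64 CPM in WT and 10 to 14.5 in KO (a change of 0.50 log2, SE 0.17, adjusted p = 0.098). Nrg1, neuregulin, which signals through ERBB3, overlapped between genotypes (a change of 0.19 log2, adjusted p = 0.706).

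Egfr, the receptor of amphiregulin and epiregulin, had 1680, 1793 and 2971 counts in WT against 3912, 4053 and 3573 in KO. WT replicate 3 stood apart from the other WT libraries, at 100 CPM, and overlapped KO replicate 3 at 97.2. Egfr was not called (a change of 0.80 log2, SE 0.34, adjusted p = 0.0621), but passed with DESeq2 (adjusted p = 0.0213), limma-voom (0.0478), no filter (0.0227) and without WT replicate 3 (1.15 log2, 0.015). Erbb2, the shared partner receptor, had 1270, 1223 and 1280 counts in WT against 704, 1744 and 1859 in KO (a change of 0.08 log2, adjusted p = 0.824). Erbb3 had 123, 219 and 132 counts in WT against 198, 64 and 84 in KO (a change of -0.40 log2, adjusted p = 0.608). For both, KO replicate 1 lay on the other side of the WT libraries from the remaining KO libraries. Without it Erbb2 was 0.34 log2 higher (adjusted p = 0.0165) and Erbb3 was called lower at -1.27 log2 (adjusted p = 0.00995).

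HGF, hepatocyte growth factor, is secreted by mesenchymal cells as an inactive precursor and signals through MET. Hgf (ENSMUSG00000028864, chromosome 5, 16553495 to 16620152, plus strand) had 16, 8 and 27 counts in WT against 285, 725 and 988 in KO. The lowest KO library, replicate 1, was at 10.7 CPM and the highest WT library at 0.912. The fitted change was 5.15 log2 (SE 0.62, adjusted p = 0.000577), and it ran from 4.80 to 5.69 with each library left out in turn. A predicted gene, Gm43489, shares 6.74% of its exon bases on the same strand and had 0 counts in WT and 34 in KO. Met (ENSMUSG00000009376, chromosome 6, 17463800 to 17573980, plus strand) had 1145, 1497 and 1587 counts in WT against 3859, 2917 and 3219 in KO. All KO values were above all WT values, and the fitted change was 1.22 log2 (SE 0.30, adjusted p = 0.00871).

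The Hgf promoter is shown as that of the gene with the largest rise. The stretch is chr5:16553245-16553494 (GRCm38.p6, plus strand), the 250 bases before the first of 2 RefSeq starts, 5′ to 3′. It has a GC content of 50.8% and no capitals, since none of the motifs matched.
Hgf: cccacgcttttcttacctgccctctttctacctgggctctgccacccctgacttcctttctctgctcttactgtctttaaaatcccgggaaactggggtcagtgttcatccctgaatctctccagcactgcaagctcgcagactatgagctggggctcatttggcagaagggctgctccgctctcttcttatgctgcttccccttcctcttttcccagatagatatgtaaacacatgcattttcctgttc

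Spint1, Spint2, St14 and Hgfac, which act on HGF activation, fell. Spint1 and Spint2 encode membrane inhibitors of the proteases that activate HGF. Spint2 had 811, 1300 and 581 counts in WT against 3, 7 and 3 in KO (a change of -7.70 log2, SE 0.41, adjusted p = 7.57e-05), and Spint1 had 422, 606 and 349 against 7, 10 and 28 (a change of -5.01 log2, SE 0.47, adjusted p = 0.000308). The activating proteases read here, St14 and Hgfac, were low in WT and lower in KO. No other protease was examined for HGF activation. St14, matriptase, had 18, 39 and 15 counts in WT against 1, 0 and 0 in KO, a depth-corrected ratio of summed counts of 75 (95% exact interval 13 to 3000, counting error only), and Hgfac, the HGF activator, had 12, 16 and 16 against 5, 3 and 3 (adjusted p = 0.00283 and 0.0141). Spint1, Spint2, St14 and Epcam are typical of epithelial cells. The epithelial markers Cdh1 (29 counts in WT and 6 in KO), Krt8 (19 and 8) and Cldn7 (4 and 1) were also lower, at counts too low to test. The keratins Krt18 and Krt19 moved the other way, and Cldn4 (3 and 2) overlapped between genotypes. Whether epithelial cells had a part in the changes of the HGF activation genes was not tested. St14 and Hgfac were named after their values were seen. The plot of HGF pathway genes shows the opposite movement of Hgf and Met on one side and of the proteases and inhibitors on the other.

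**Figure D3:**
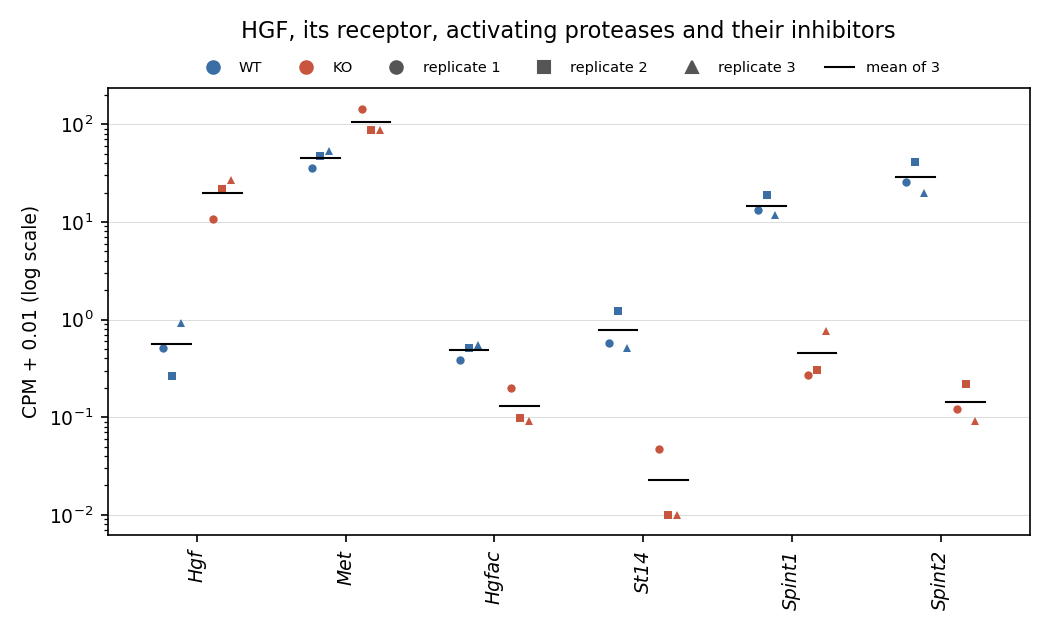
CPM + 0.01 on a log axis for Hgf, Met, the activating proteases Hgfac and St14 and the protease inhibitors Spint1 and Spint2, with 1 symbol per library and a line at the mean of 3. Hgf and Met lie higher in all KO libraries, and the other 4 genes lie lower, with St14 at 0 counts in KO replicates 2 and 3.

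KIT ligand and GAS6 act through KIT and through the TAM receptors AXL, TYRO3 and MERTK. Kitl (ENSMUSG00000019966, chromosome 10, 100015630 to 100100416) had 2703, 3322 and 5095 counts in WT against 6723, 11086 and 7880 in KO, a change of 1.14 log2 (SE 0.35, adjusted p = 0.0204). WT replicate 3, at 172 CPM, came nearest to the lowest KO library at 214. Its receptor gene Kit had 7 counts in WT and 0 in KO. Gas6 (ENSMUSG00000031451, chromosome 8, 13465374 to 13494490) had 14384, 11251 and 18468 counts in WT against 26787, 30203 and 28669 in KO, a change of 0.91 log2 (SE 0.26, adjusted p = 0.0195). Per exon length it was the most abundant of the 47 genes in both genotypes, at 187 ± 53.6 RPKM in WT and 351 ± 44.4 in KO, followed by Kitl at 20.4 ± 7.73 and 44.9 ± 9.85. Axl was not called (a change of 0.15 log2, adjusted p = 0.333), and Tyro3 fell by 0.56 log2 (SE 0.18, adjusted p = 0.0453). The calls of both ligands were lost without WT replicate 1 (adjusted p = 0.0707 for Kitl and 0.0806 for Gas6) or WT replicate 2 (0.0874 and 0.07). Tyro3 lost its call in 5 of 14 refits, 4 of them without any 1 WT library or KO replicate 3, with adjusted p up to 0.147.

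**Figure D4:**
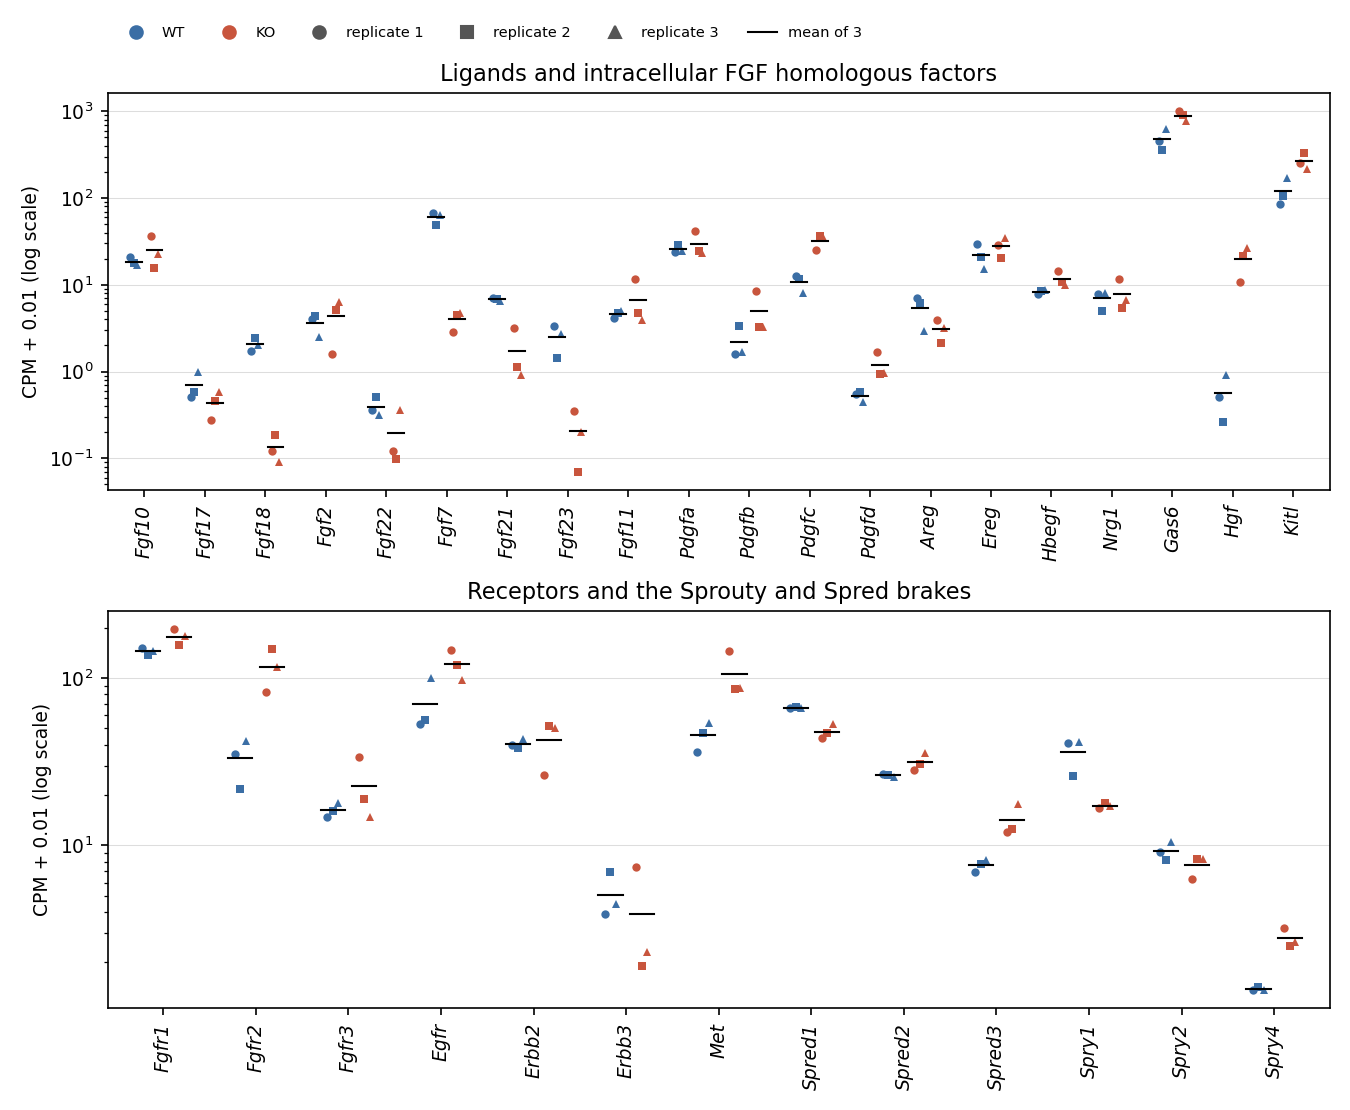
CPM + 0.01 on a log axis for the 33 tested genes, ligands and FGF homologous factors above and receptors and brakes below, with 1 symbol per library and a line at the mean of 3. Fgf7, Fgf18, Fgf21 and Fgf23 sit lower in all KO libraries, and Hgf, Kitl, Gas6, Pdgfc, Fgfr2 and Met sit higher.

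The brakes split by gene. Spry1, which inhibits FGF signalling upstream of RAS (ENSMUSG00000037211, chromosome 3, 37639947 to 37644598), had 1299, 825 and 1222 counts in WT against 447, 603 and 628 in KO. After scaling, the KO libraries were tightly grouped at 16.8 to 17.9 CPM, under the lowest WT library at 25.9, and the fitted change was -1.06 log2 (SE 0.22, adjusted p = 0.00658). An antisense gene, Gm42922, covers 24.4% of its exon bases and had 9 counts in WT and 6 in KO. Spred1, which brings the RAS-inactivating protein neurofibromin to the membrane (ENSMUSG00000027351, chromosome 2, 117121374 to 117182279), had 2094, 2129 and 1975 counts in WT against 1162, 1579 and 1960 in KO. In CPM the groups did not overlap, at 65.8 to 66.9 in WT and 43.6 to 53.3 in KO, and the fitted change was -0.47 log2 (SE 0.08, adjusted p = 0.0195). Spry2 was not called (a change of -0.29 log2, adjusted p = 0.32).

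Spry4 had 43, 45 and 40 counts in WT against 85, 84 and 97 in KO, a change of 1.01 log2 (SE 0.11, adjusted p = 0.0197), from a level of 0.288 ± 0.00767 RPKM in WT. Spred3 had 219, 245 and 242 counts in WT against 320, 423 and 651 in KO, a change of 0.89 log2 (SE 0.19, adjusted p = 0.0158). Spred2 stood at 26.2 ± 0.567 CPM in WT and 31.4 ± 3.99 in KO and was not called (adjusted p = 0.179), although it was without KO replicate 1 (0.0294). Per exon length Spry1 and Spred1 were the most abundant of the 6 brake genes in WT, at 12.4 ± 3 and 9.8 ± 0.0855 RPKM, and in KO Spred1, Spred2 and Spry1 lay close together at 7.06 ± 0.726, 6.81 ± 0.864 and 5.94 ± 0.194. The summed level of the 6 genes was 30 to 36.2 RPKM in WT and 23.9 to 28.9 in KO. Calls of Spred1, Spry4 and Spred3 were lost without WT replicate 1 (adjusted p = 0.0633, 0.0739 and 0.0712) or WT replicate 2 (0.0852, 0.0826 and 0.0668). Spred1 and Spry4 also lost them without WT replicate 3 (0.0616 and 0.0666), Spred1 without KO replicate 2 (0.0615), and Spry4 and Spred3 without KO replicate 3 (0.0555 and 0.0551).

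The rest of the pathway was read from lists of genes outside the 47. Of 18 other brakes 17 were tested, and 3 rose, 2 fell and 12 were not called. Errfi1, an inhibitor of EGFR kinase activity, stood at 118 ± 23.2 CPM in WT and 490 ± 219 in KO, a rise of 2.06 log2 (SE 0.39, adjusted p = 0.00316). The ubiquitin ligase gene Cblb rose by 1.06 log2 and the ERK phosphatase gene Dusp5 by 0.81. Il17rd, an FGF-induced inhibitor of FGF receptors, fell by 1.34 log2 (SE 0.25, adjusted p = 0.0043), and Sulf2, which trims heparan sulfate, fell by 0.89. Dusp6, the classical ERK phosphatase induced by FGF, was not called (a change of -0.49 log2, adjusted p = 0.269).

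**Figure D5:**
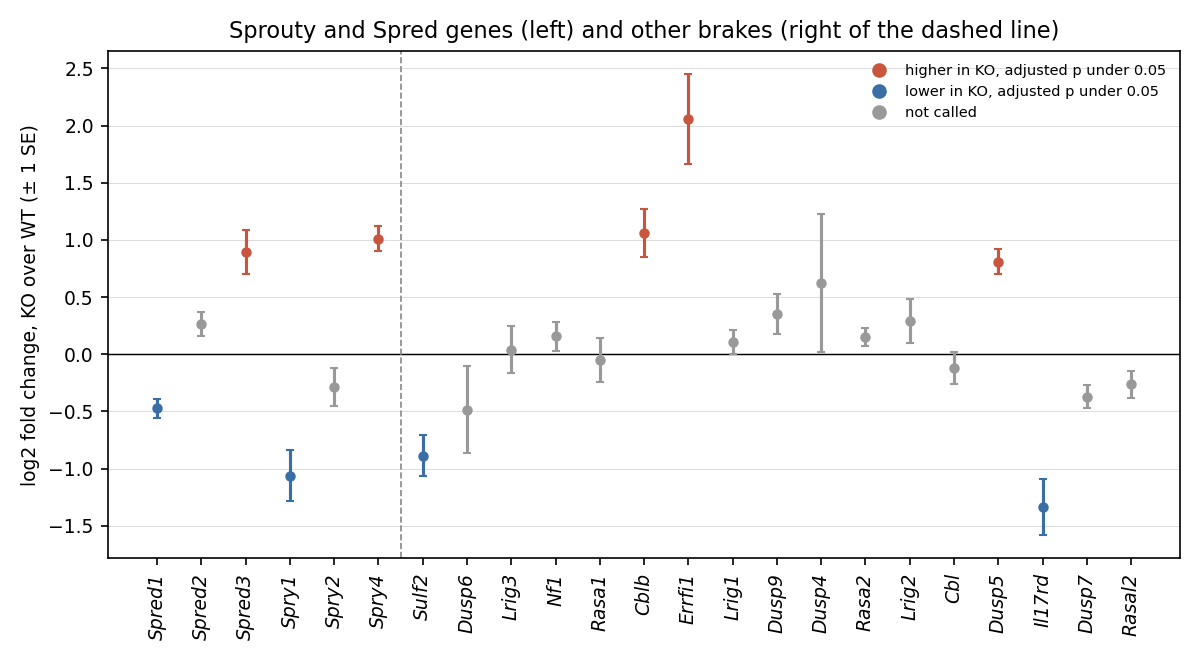
Log2 fold change, KO over WT, with bars of 1 SE (3 libraries per genotype) for the 6 Sprouty and Spred genes, left of the dashed line, and 17 other tested brakes to its right. Both sets hold genes above and below 0, with Errfi1 highest at 2.06 and Il17rd lowest at -1.34.

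Of 22 adaptors and RAS-ERK cascade genes, all tested, 3 rose, 1 fell and 18 were not called. Rras2 and Rras, RAS-related GTPases, rose by 1.01 and 0.95 log2, and the adaptor Grb2 by 0.41. Map2k2, which encodes a MEK kinase, fell by 0.51 (adjusted p = 0.0494). Map2k2 missed the test in 8 of 14 refits and Grb2 in 6. Among 10 genes induced by ERK signalling 9 were tested, of which 2 fell and 7 were not called. Epha2 fell by 0.44 log2 and Phlda1 by 0.62 (adjusted p = 0.0245 and 0.031), and each lost its call in 5 of 14 refits, with adjusted p up to 0.103 and 0.113.

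Of 22 co-receptors, carriers, sheddases and activating proteases 20 were tested, and 4 rose and 6 fell. The heparan sulfate proteoglycans Sdc3, Sdc2 and Sdc4, which hold FGFs at the cell surface, rose by 2.74, 1.05 and 1.12 log2, Sdc3 from 23.9 ± 3.37 to 160 ± 39 CPM. Sdc4 lost its call without any 1 WT library, with adjusted p up to 0.0706. Gpc2, a glypican, fell by 3.34 log2, from 109 counts in WT to 11 in KO. Of 18 further receptors and ligands of these families 13 were tested, and 2 rose, 3 fell and 8 were not called. Btc, betacellulin, an EGFR ligand, rose by 1.05 log2, and Nrg2 and Tgfa fell by 1.54 and 0.54. The Tgfa call (adjusted p = 0.0463) was lost in 7 of 14 refits and that of Btc (0.0201) in 4. The share of tested genes called was 45.5% for the growth factor and brake genes themselves. It was 50% for the co-receptor list, 38.5% for the further receptors and ligands, 29.4% for the other brakes, 22.2% for the ERK-induced genes and 18.2% for the RAS-ERK cascade, beside 28.3% for all tested genes.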

How the data were processed

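The authors deposited unnormalized read counts, a file for each library, with Ensembl identifiers. GRCm38.p4, HTSeq, DESeq2 and TopHat2 2.1.0 appear in the submitters' processing notes. Annotation release, strand setting and read filters: not given in the sources used here. Library preparation used the TruSeq RNA Library Prep Kit v2, per the labels' protocols. Of 46603 identifiers 46005 matched GENCODE M21 (GRCm38), which gave symbols, positions, exon lengths and exon overlaps, and 598 did not.

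Counts were analysed in R 4.3.3 with edgeR 4.0.16. The filter was filterByExpr (by group), the scaling TMM, and the test of KO over WT the quasi-likelihood F test, with no covariate. The fit was tested on simulated data. CPM and RPKM values use the TMM-scaled totals of the tested genes and are given as mean ± SD, n = 3. Each SE belongs to the difference between genotype means of log2 CPM (prior count 2). Alternatives were other scalings, DESeq2 1.42.0, limma-voom (limma 3.58.1), other filters, the replicate number as a block, a fold threshold and each library left out.

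Members and lists were chosen with earlier results of these data known. Every tested member was to be named, and of each list the 3 called genes with the smallest p in each direction. Other genes named from the lists were chosen after their values were seen.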

Additional observations from a re-analysis of the deposited data

How the results depend on the processing

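Of the growth factor and brake genes, 9 were higher and 6 lower in KO. With RLE and upper-quartile scaling these counts did not change, and DESeq2 gave 10 and 6. DESeq2 called 2648 higher and 2591 lower over all 15009 tested genes. Leaving out 1 library at a time gave 4 to 10 higher and 4 to 7 lower. Over all tested genes 2074 were higher and 2181 lower, and leaving out libraries gave 1003 to 3075 and 1295 to 3462. With library totals in place of scaling factors 1351 were higher and 3347 lower, so that the share of higher calls went from 48.7% to 28.8%. The median log2 fold change of all tested genes then moved from 0.01 to -0.193 and that of the tested growth factor and brake genes from 0.29 to 0.096. Pdgfd was the 1 call among them lost with library totals (adjusted p = 0.0637). A log2 fold change of at least 1 left 1003 higher and 1294 lower genes. With the replicate block 7 and 5 of the growth factor and brake genes were called, Pdgfd, Spred1 and Spry4 being lost (adjusted p = 0.0908, 0.0583 and 0.0729). The block called 1446 higher and 1599 lower over all tested genes. Nothing in the labels pairs libraries across genotypes, and deviations of equally numbered libraries correlated across genes at -0.101, 0.046 and -0.148. No called gene changed sign in any refit. At these depths a gene at 0 counts may still be present at up to 0.0816 to 0.113 CPM.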

Other observations

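In the 33 tested genes the KO libraries differed more among themselves than the WT libraries did. The ratio of the highest to the lowest library of a genotype had a median of 1.49 in WT and 1.81 in KO. It was not taken over all tested genes. The largest such ratios were 3.63 in WT (Hgf) and 5.7 in KO (Fgf23). Both came from low counts, 16, 8 and 27 for Hgf and 9, 2 and 7 for Fgf23. KO replicate 1 held the highest KO value for 17 of the 33 genes and the lowest for 12. Fgf11, Pdgfb, Erbb3 and Fgf21 were higher there than in the other two KO libraries, at 11.6, 8.53, 7.44 and 3.15 CPM, and Fgf2, Erbb2 and Hgf were lower, at 1.58, 26.4 and 10.7 CPM. That library also had the fewest genes detected, 20870, and the lowest Actb count, 276.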
